A study of Bos taurus with 20 samples.

Results

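The transcripts described here are those of the collagen VI chains COL6A1, COL6A2 and COL6A3, of the basement membrane collagen chain COL4A2 and of the basement membrane proteoglycan agrin (AGRN), in the endometrium of heifers on day 18 after oestrus. They were taken as all spotted cDNA clones to which the platform's gene table gives only 1 of these 5 symbols, which left 7 of the 3072 clones on 2 arrays, and 5 of the 148 genes with a name. Per the gene table, the 18KB array, made from a library enriched for transcripts of pregnant animals, carried 1 clone each of COL6A1 (clone 18KB-03-H08, gene identifier 511422), COL6A2 (18KB-11-F01, 282194) and AGRN (18KB-03-E05, 525795). The 18KO array, made from a library enriched for transcripts of controls, carried another clone of COL6A1 (18KO-15-A01), the clones 18KO-07-E04 and 18KO-10-C01 of COL6A3 (530657) and 1 clone of COL4A2 (18KO-10-F01, 508632). The symbols are those of the same gene identifiers in the RefSeq gene table of assembly ARS-UCD2.0, in which COL6A1 and COL6A2 are direct neighbours, COL4A2 lies beside COL4A1, and AGRN lies beside the interferon-stimulated gene ISG15.

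The animals were Simmental (Deutsches Fleckvieh) heifers aged 17 to 22 months whose cycles had been synchronised with the prostaglandin analogue cloprostenol. The 4 pregnant heifers (17 to 20 months) had been inseminated with sperm of a single bull and carried an intact conceptus, which was removed before sampling, and the 6 controls (18 to 22 months) had received the sperm-free supernatant of semen of the same bull and had no conceptus. Tissue came from the intercaruncular endometrium of the caudal uterine horn on the side of ovulation, and every animal's RNA, labelled with phosphorus-33, was put on the 2 arrays together. The highest of the intensities, 1536 per array and animal, was 685.73 on the 18KB and 632.83 on the 18KO array. Column medians lay between 1.39 and 3.18 (18KB) and between 1.67 and 3.90 (18KO). On the 18KB array the medians of the 4 pregnant heifers (2.495 to 3.18) all lay above those of the 6 controls (1.39 to 1.9). Column level and group thus coincided there, and the main fit did not rescale the columns. The lowest value of any of the 7 clones was 1.34 times the 10th percentile of its array. Precision is limited by the 4 and 6 animals of the groups. The 18KO array of pregnant heifer 316 had blurred spots, was hybridised again later together with 2 other samples, and was placed by its ratios to these.

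Collagen VI is assembled from the products of COL6A1, COL6A2 and COL6A3, which join in a trimer and then form beaded microfilaments in the connective tissue, often close to basement membranes. Collagen IV, of which COL4A2 encodes a chain, forms the network of the basement membrane itself. Agrin is a heparan sulfate proteoglycan that binds laminin and the receptor dystroglycan, and is best known for gathering acetylcholine receptors at the junction of nerve and muscle. In the uterus, stromal cells are a chief source of interstitial collagens, and basement membranes lie under the luminal and glandular epithelium and around vessels and smooth muscle.

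In pregnant endometrium the collagen transcripts were lower and the agrin transcript was higher than in controls. COL6A3 was 5.43-fold lower, COL4A2 3.46-fold lower, COL6A1 2.39-fold lower on the 18KB array and COL6A2 2.01-fold lower, and AGRN was 4.62-fold higher. A gene was called at a limma adjusted p under 0.01, over all rows of its array, and a fold of at least 2. By this rule COL6A1 and COL6A2 fell and AGRN rose on the 18KB array, and COL6A3 and COL4A2 fell on the 18KO array, where COL6A1 did not pass. Over all 1420 rows tested on the 18KB array 0.634% were called lower and 15.6% higher, and over all 1471 rows of the 18KO array 3.87% were called lower. Among genes with a name the shares were higher, 10.5% lower and 77.9% higher on the 18KB array and 29.2% lower on the 18KO array. Names come chiefly from clones sequenced by the authors because they differed between these same animals, so the count of members called is not independent evidence of their direction.

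**Figure D1:**
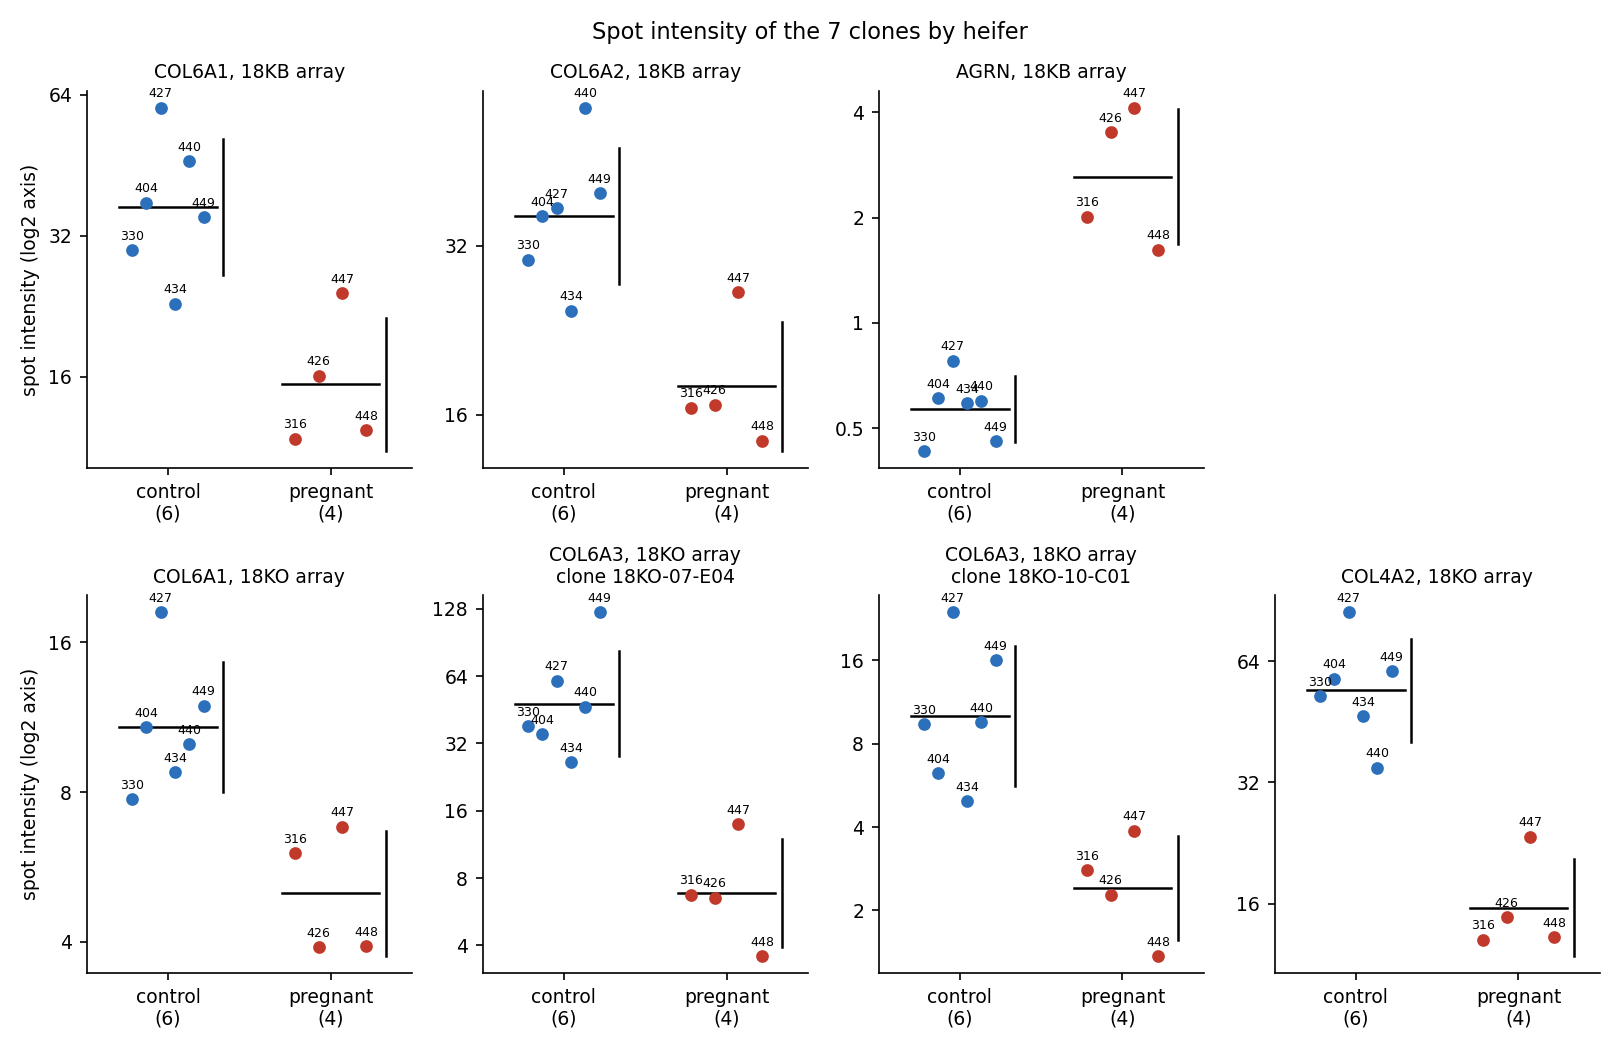
Spot intensity (log2 axis, as deposited) of each of the 7 clones in the 6 control (blue) and 4 pregnant (red) heifers, each point labelled with the animal's number; horizontal bars are geometric means and vertical bars ± 1 SD of log2 values. For AGRN all pregnant animals lie above all controls, for COL6A3, COL4A2 and COL6A1 on the 18KO array all lie below, and for COL6A1 and COL6A2 on the 18KB array pregnant 447 lies above control 434.

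Among the collagen VI chains, COL6A1 was measured on both arrays. On the 18KB array its intensity was 11.8 in pregnant 316, 16.1 in 426, 24.1 in 447 and 12.3 in 448, against 22.9, 36.3 and 60.0 as the lowest, median and highest of the 6 controls. Pregnant 447 thus lay just above the lowest control, 434, while the other 3 pregnant animals lay below every control. The difference of mean log2 values was -1.26 ± 0.29 (SE, 4 against 6 animals; 95% interval -1.88 to -0.63; limma adjusted p = 0.00583), and the two-sided exact permutation p was 0.00952. The call was lost, at -1.28 to -1.13, when pregnant 316, 426 or 448 or control 404, 440 or 449 was left out, and with age as a covariate (-1.13, limma adjusted p = 0.0201).

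On the 18KO array the clone of COL6A1 had intensities of 6.03 in pregnant 316, 3.90 in 426, 6.82 in 447 and 3.92 in 448. Controls ran from 7.75 to 18.4 with a median of 10.4, so that the groups did not overlap; 9.59% of all rows of this array were lower in each pregnant animal than in each control. The difference was -1.11 ± 0.29 (95% interval -1.73 to -0.49), and the gene was not called (limma adjusted p = 0.0242). With the adjustment over named genes alone it was called (limma adjusted p = 0.00952), as it was with 1 scaling factor per animal (-1.36). The 2 arrays gave COL6A1 similar differences between the groups: the 18KO value minus the 18KB value was 0.14 ± 0.44 (95% interval -0.76 to 1.05; limma interaction, adjusted p = 0.999 over the 10 genes named on both arrays). This fit took the 2 arrays of a heifer as independent. With the animal as a replicate block the value was 0.14 ± 0.31, an SE that this fit gave alike to all 10 genes. When the medians of all columns of an array were set equal, the difference became -2.09 on the 18KB and -0.78 on the 18KO array. It then differed between the arrays by 1.30 (limma interaction, adjusted p = 0.0139), again in the fit without the block. Heifer by heifer, deviations from the group mean on the 18KB and 18KO arrays were 0.65 and 0.45 in pregnant 447, and 0.70 and 0.76 in control 427, the highest of its group on both. The deviations were of opposite sign in 5 of the 10 heifers, by most in pregnant 316 (-0.38 and 0.27).

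COL6A2, the neighbour of COL6A1 in the genome, gave values close to those of COL6A1 on the same array. Its intensity was 16.5 in pregnant 316, 16.7 in 426, 26.4 in 447 and 14.4 in 448, against 24.5, 36.7 and 56.3 as the lowest, median and highest control. As for COL6A1, only pregnant 447 lay above the lowest control, 434. The difference was -1.01 ± 0.25 (95% interval -1.55 to -0.47; limma adjusted p = 0.00848; two-sided exact permutation p = 0.0143), right at the 2-fold limit of the rule. The call held when pregnant 447 or control 434 was left out but not when any other single animal was left out, with limma adjusted p-values of 0.0114 to 0.0279 (-1.06 to -0.88 without pregnant 316, 426 or 448 or control 330, 404, 427, 440 or 449), nor with age as a covariate (-0.92, limma adjusted p = 0.0286). With equal column medians the difference was -1.84.

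COL6A3, the longest of these chains, showed the largest decrease of the 5 genes in the intensities as deposited. Pregnant 316 had an intensity of 6.75 at the brighter clone, 18KO-07-E04, and 426, 447 and 448 had 6.53, 13.9 and 3.59; the lowest, median and highest control had 26.3, 42.5 and 123. The dimmer clone, 18KO-10-C01, had 2.79, 2.28, 3.88 and 1.37 in the same pregnant animals, against 4.95, 9.49 and 23.8. In neither clone did the groups overlap, and both were lowest in pregnant 448 and highest, among pregnant animals, in 447. The differences of the 2 clones were not tested against each other. The brighter clone gave -2.81 ± 0.44 (limma adjusted p = 0.000827) and the dimmer clone -2.07 ± 0.43 (limma adjusted p = 0.00523), where 6.32% of all clones of the array were called lower. Their mean gave -2.44 ± 0.42 (95% interval -3.33 to -1.55; limma adjusted p = 0.00197; two-sided exact permutation p = 0.00476, the smallest that 4 against 6 animals allow). Without pregnant 448, the animal with the lowest values, the difference was -2.15 and the call was lost (limma adjusted p = 0.011).

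**Figure D2:**
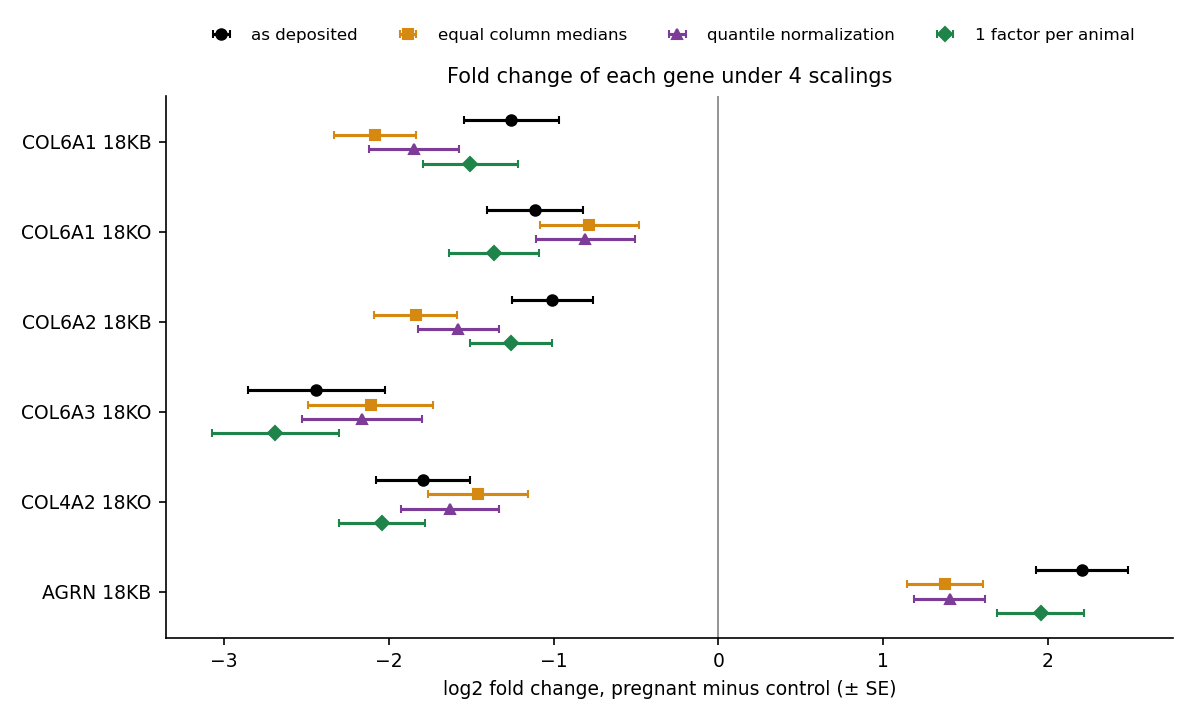
Log2 fold change, pregnant minus control, with its SE (horizontal bars) for each gene and array as deposited and under 3 other scalings of the columns. All values of the collagen genes lie below 0 and all values of AGRN above 0; equal column medians move the 18KB values down (COL6A1 from -1.26 to -2.09, AGRN from 2.21 to 1.38) and the 18KO values up (COL6A1 from -1.11 to -0.78).

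The clones of the collagen VI chains did not all differ between the groups by the same amount. This was examined with ratios of 2 genes on the same array within each animal, which a single factor per column leaves unchanged. Quantile normalization or another background subtraction could change them, and neither was tried for the ratios. Such pairs numbered 6, each tested by a two-sided exact permutation of the animals (210 arrangements), with Benjamini-Hochberg adjustment over the 6. For COL6A1 over COL6A2 the log2 ratio in pregnant animals was -0.22 ± 0.19 (SD, n = 4), and that of the controls 0.03 ± 0.34 (SD, n = 6). The groups overlapped, and the difference of -0.25 had a 95% interval, obtained by inverting the permutation test, of -0.72 to 0.14 (exact permutation adjusted p = 0.257). For COL6A1 over COL6A3 the log2 ratio in pregnant animals was 0.30 ± 0.43 (SD, n = 4), and that of the controls -1.03 ± 0.56 (SD, n = 6). Each pregnant animal (-0.11 to 0.82) lay above each control (-1.89 to -0.38), so that COL6A3 was 2.51-fold lower relative to COL6A1 in pregnant animals (log2 difference 1.33, 95% interval 0.53 to 2.14; exact permutation adjusted p = 0.019). With the brighter COL6A3 clone alone the difference was 1.70 (exact permutation adjusted p = 0.00952) and with the dimmer clone alone, a choice made after its values were seen, 0.95 (exact permutation adjusted p = 0.0429). Without pregnant 448 it was 1.15 (exact permutation adjusted p = 0.0536). COL6A2 and COL6A3 lie on different arrays, and their values of -1.01 and -2.44 were not tested against each other. The 2 clones of COL6A3 themselves gave -2.81 and -2.07, so a difference between chains cannot be told apart here from one between clones.

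**Figure D3:**
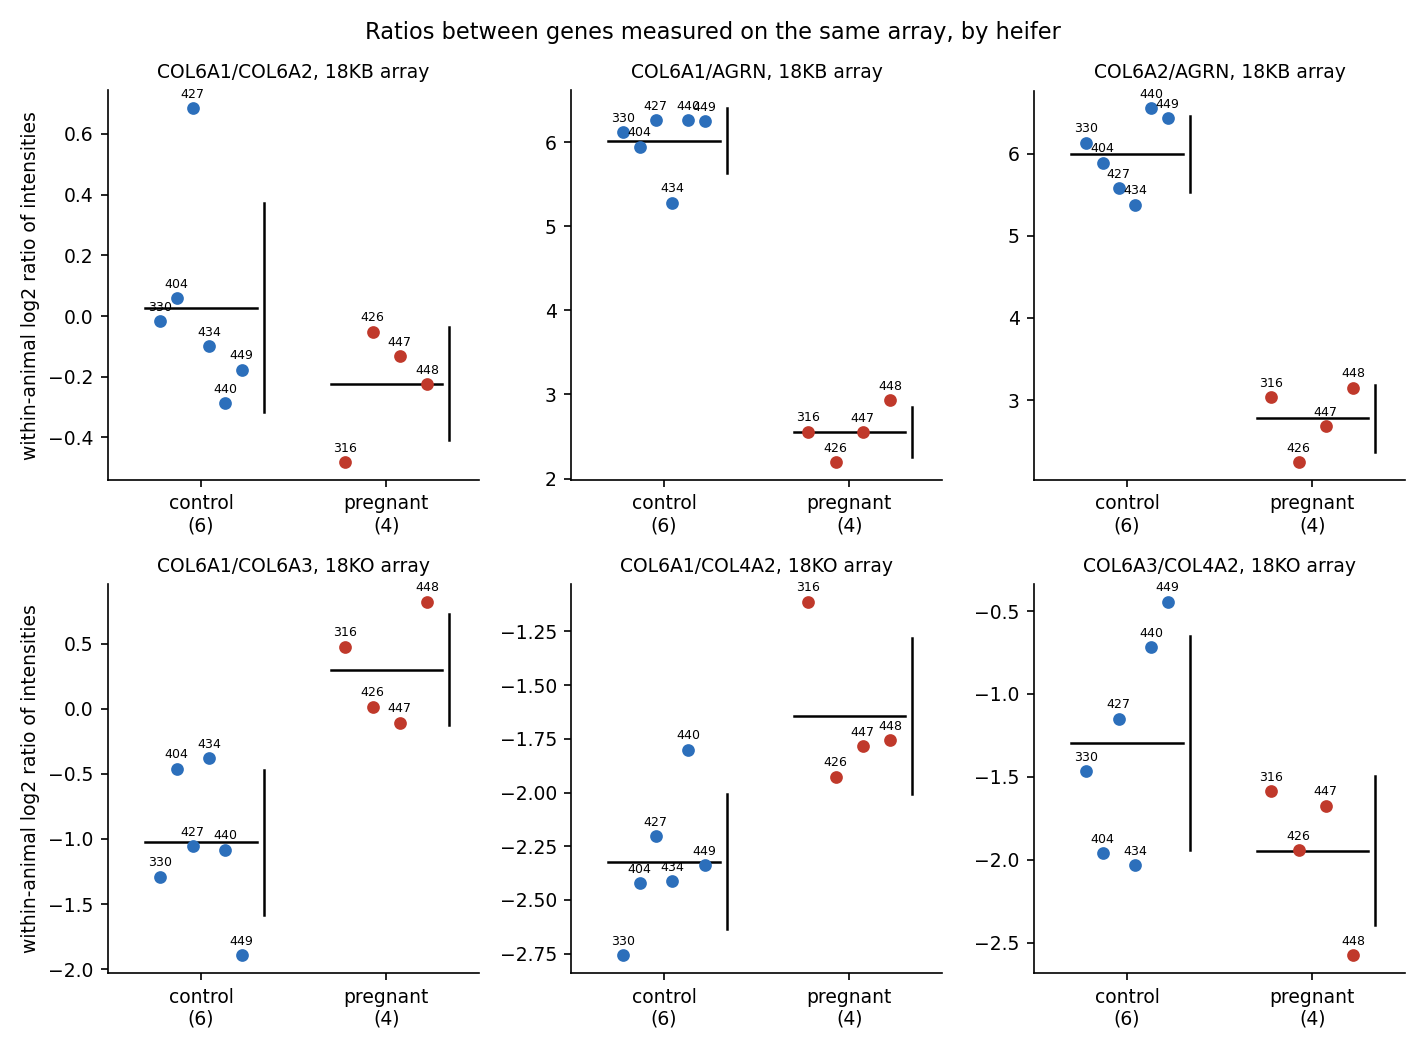
Within-animal log2 ratios of the intensities of 2 genes on the same array in control (blue) and pregnant (red) heifers, labelled by animal number; horizontal bars are means and vertical bars ± 1 SD. The groups are separate for COL6A1/AGRN, COL6A2/AGRN and COL6A1/COL6A3, and overlap for COL6A1/COL6A2, COL6A1/COL4A2 and COL6A3/COL4A2.

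Of the basement membrane genes, COL4A2 fell. Its intensity was 13.03 in pregnant 316, 14.8 in 426, 23.5 in 447 and 13.2 in 448, against 34.8, 55.2 and 84.5 as the lowest, median and highest of the controls. Even the highest pregnant animal, 447, lay below the lowest control, 440, and the gap was 0.57 on the log2 scale. The difference was -1.79 ± 0.28 (95% interval -2.40 to -1.18; limma adjusted p = 0.0011; two-sided exact permutation p = 0.00476). Its call was kept without any single animal (-1.99 to -1.66) and under each of the 3 other scalings (-2.04 to -1.46). Relative to COL6A1 on the same array COL4A2 was 1.60-fold lower in pregnant animals: the log2 ratio of COL6A1 over COL4A2 was -1.64 ± 0.36 (SD, n = 4) against -2.32 ± 0.31 (SD, n = 6), a difference of 0.68 (exact permutation adjusted p = 0.0214). That difference rested in part on the repeated array of pregnant 316, without which it was 0.50 (exact permutation adjusted p = 0.0893). For COL6A3 over COL4A2 the groups overlapped, and the difference was -0.65 with a 95% interval of -1.52 to 0.29 (exact permutation adjusted p = 0.143). No clone of COL4A1, the partner chain and neighbour of COL4A2, carries a name here.

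AGRN went the opposite way. Its clone was dim in controls, with intensities of 0.43, 0.595 and 0.78 as the lowest, median and highest, against a 10th percentile of 0.32 over all values of the array. In pregnant animals it was 2.01 in 316, 3.51 in 426, 4.12 in 447 and 1.62 in 448. The groups were well apart, with a gap of 1.05 on the log2 scale between the highest control, 427, and the lowest pregnant animal, 448; 22.3% of all rows of this array were higher in each pregnant animal than in each control. The difference was 2.21 ± 0.28 (95% interval 1.60 to 2.82; limma adjusted p = 0.000126; two-sided exact permutation p = 0.00476), the 78th largest increase of the 1420 rows. Among the 86 named genes of this array it was the 33rd largest, and their median difference was 1.85. AGRN kept its call under every alternative tried, from 1.38 with equal column medians, a change of more than 1.5 times, to 2.44 without pregnant 448. Within each animal the ratio of COL6A1 to AGRN was 11.03-fold lower in pregnant animals than in controls (log2 2.56 ± 0.30, SD, n = 4, against 6.02 ± 0.38, SD, n = 6; exact permutation adjusted p = 0.0143). For COL6A2 over AGRN it was 9.28-fold lower (log2 2.78 ± 0.41, SD, n = 4, against 5.99 ± 0.47, SD, n = 6; exact permutation adjusted p = 0.0143). These 2 ratios had to differ, since the collagens were called lower and AGRN higher in the same animals, and they add no further support. Both count among the 6 pairs of the adjustment, which lowers the adjusted p-values of COL6A1/COL6A3 and COL6A1/COL4A2.

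Deviations of single heifers from their group mean ran in part together over the 5 genes. Among pregnant animals 447 was the highest in all 6 gene measurements, AGRN included, by 0.45 to 0.86 above the group mean on the log2 scale. Among controls 427 was the highest in 4 of 6 (COL6A1 on both arrays, COL4A2 and AGRN), while COL6A2 was highest in control 440 and COL6A3 in control 449. The lowest values were spread over more animals, with pregnant 448 lowest in 3 of 6 and control 434 lowest in 3 of 6. The column median of pregnant 447 was the highest of the 18KB array, 3.18, but on the 18KO array, at 2.18, it lay below that of pregnant 316. On the 18KB array pregnant 426 and 447 and control 427 were also the only arrays with no value at the floor of 0.01. With these arrays as a block the differences were -1.51 for COL6A1, -1.10 for COL6A2 and 1.93 for AGRN, and all 3 kept their calls. Among these 3 arrays alone the differences were -1.61, -0.83 and 2.29 (2 pregnant against 1 control), and among the others -1.47, -1.22 and 1.76 (2 against 5), with no test. The part of column scaling in the deviations was not tested.

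**Figure D4:**
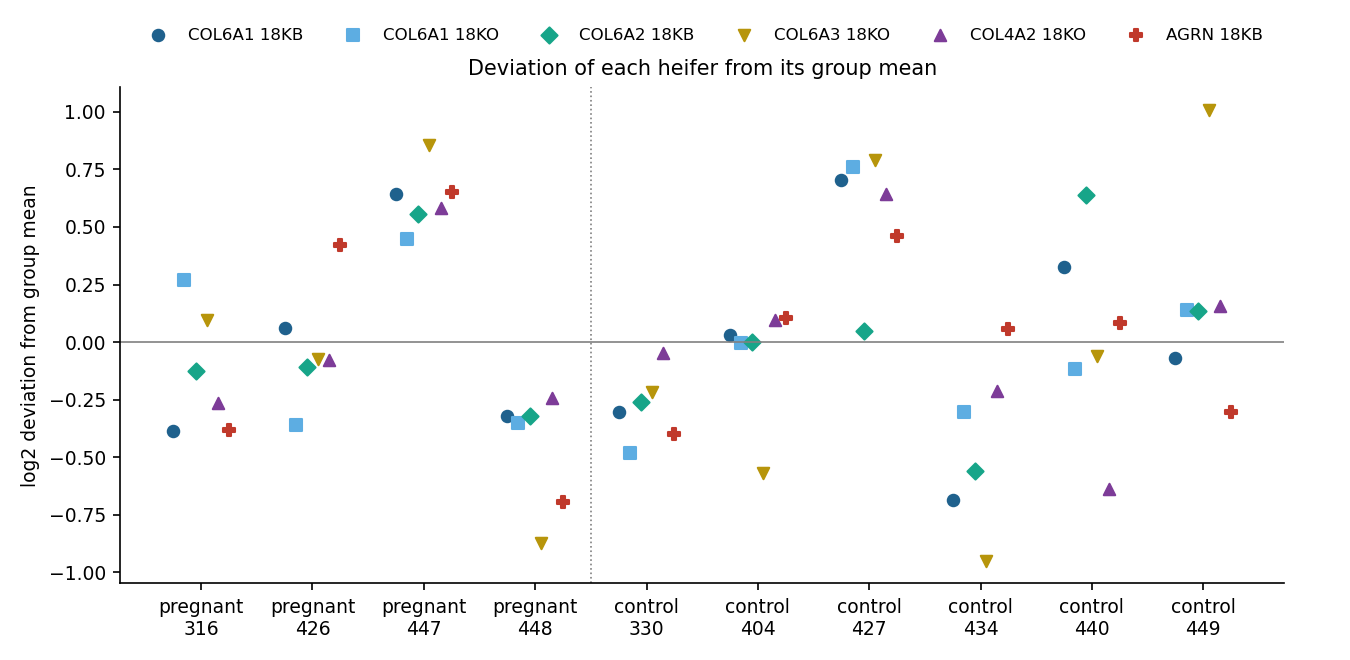
Deviation of each heifer from the mean of its group (vertical axis, log2 units) for the 6 gene measurements, pregnant animals left and controls right of the dotted line. All 6 symbols of pregnant 447 lie above 0, and in control 449 COL6A3 stands out at 1.01.

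The genes most like each member were sought among the other named genes of the same array, by the root mean square difference between log2 profiles over the 10 animals after centring each gene on its mean. Centring over all 10 animals keeps the difference between the groups. A small value can therefore come from a similar group difference alone, and does not show shared variation between animals. On the 18KB array 9 of the 86 named genes were called lower and 67 higher, which bears on the medians given there. The nearest to COL6A1 on the 18KB array was COL6A2 (0.29), followed by the splicing factor TRA2B (0.31) and the tubulin TUBB4B (0.33), where the median over the 85 other genes was 1.60. For COL6A2 the order after COL6A1 was TUBB4B (0.36) and TRA2B (0.37). On the 18KO array the nearest to COL6A1 were the actin ACTB (0.35), the collagen chaperone SERPINH1 (0.40) and the matricellular protein SPARC (0.41). For COL6A3 they were PMEPA1, a membrane protein (0.39), and the fibrillar collagens COL1A1 (0.42) and COL3A1 (0.54). For COL4A2 they were the tubulin TUBB (0.41), COL6A1 (0.45) and SPARC (0.46). The medians over the 71 other genes were 0.69, 0.88 and 0.69. The nearest to AGRN were CAPN6, a calpain family member (0.24), ZNFX1, a zinc finger helicase (0.25), and IFIH1, a sensor of double-stranded RNA (0.25), against a median of 0.62. Across the arrays, the profile of COL6A1 on the 18KB array differed from its own on the 18KO array by 0.33, and from those of COL4A2 and COL6A3 by 0.45 and 0.76.

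Further genes of the matrix were counted from lists of basement membrane components, collagen VI partners, fibrillar collagens, collagen-modifying enzymes, matrix receptors, and proteases with their inhibitors. Of the 138 genes on these lists 7 carry a name on the 18KB array, of which 5 fell and 2 rose, with a median log2 difference of -1.26 against 0.38 over all rows of the array and 1.85 over its named genes. Besides AGRN the cross-linking enzyme TGM2 rose (1.71 ± 0.31), though it was not called after quantile normalization (0.95) or with column medians set equal (0.88). Besides the collagen VI chains the fibrillar collagens COL1A1 (-2.02 ± 0.45), COL1A2 (-1.73 ± 0.41) and COL3A1 (-1.69 ± 0.35) fell. The count of 7 dropped to 2 without pregnant 316, to 3 without pregnant 448 or control 440 or 449, to 4 without pregnant 426 or control 404, and to 3 with age as a covariate. In each case AGRN and TGM2 were the genes called higher. Over all rows 0.211% to 0.563% were called lower and 12.3% to 15.4% higher in these settings, against 0.634% and 15.6% in the main fit.

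On the 18KO array 15 genes of the lists carry a name. By limma's test 7 fell and 0 rose, where 3.87% of all rows were called lower (29.2% of named genes) and 0.884% higher. The other 8 also had values below 0 (median of the 15 -1.73, against -0.02 over all rows and -1.34 over all 72 named genes). Those that fell, besides COL6A3 and COL4A2, were TNC, a matrix glycoprotein (-3.26 ± 0.59), COL1A1 (-2.28 ± 0.41), the protease inhibitor TIMP1 (-2.19 ± 0.43), COL3A1 (-1.73 ± 0.37) and SPARC, which binds collagens (-1.53 ± 0.31). With the adjustment over named genes alone 13 of the 15 fell, where 59.7% of all named genes did, and with a floor at the 10th percentile 1 did, where 2.65% of all rows did. The count was 1 without pregnant 448, where 1.63% of all rows were called lower, 3 without pregnant 426 (2.31%) and 4 without pregnant 316 (2.99%). On both arrays COL1A1, COL1A2 and COL3A1 were lower by more than COL6A1 as values, a comparison that was not tested. Basement membrane genes with a name were few: AGRN alone on the 18KB array, and COL4A2 and SPARC on the 18KO array, so that laminins, nidogens and perlecan were not measured by name.

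**Figure D5:**
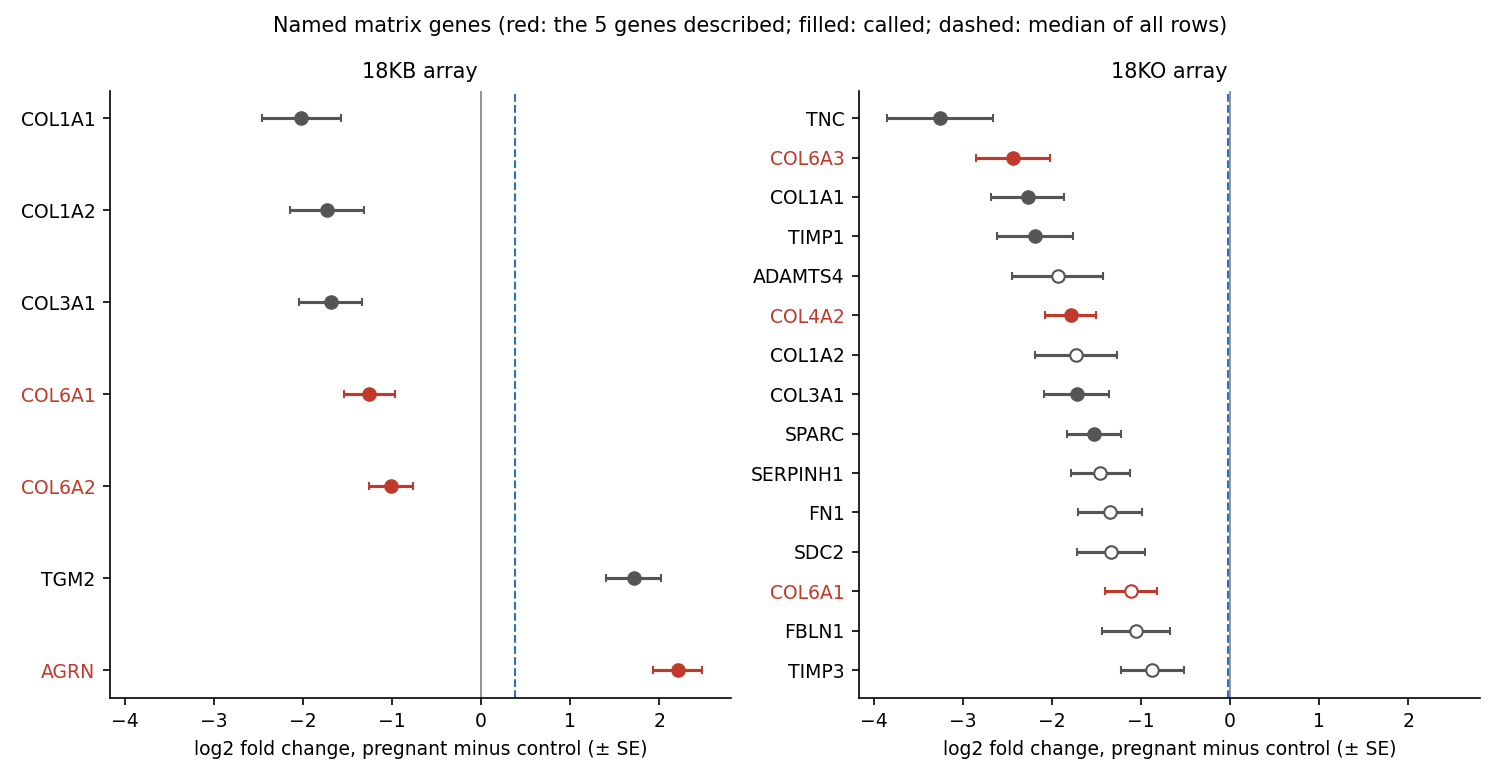
Log2 fold change, pregnant minus control, with its SE for every named gene of the matrix lists on each array; the 5 genes described are in red, filled symbols are called, and the dashed line is the median of all rows. On the 18KB array AGRN and TGM2 lie above 0 and the collagens below, and on the 18KO array all 15 genes lie below 0.

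Some named markers of cell types also differed between the groups, and not all in 1 direction. Fewer cells of a type and less RNA per cell cannot be told apart in such tissue samples. Of 12 markers of stromal fibroblasts 3 carry a name on the 18KB array, all of them fibrillar collagens that fell, and their summed intensity was 107 to 436 in pregnant animals against 622 to 1415 in controls. On the 18KO array 6 carry a name, COL6A3 among them. Without COL6A3 the sum was 67.3 to 268 against 309 to 1041, with COL1A1 and COL3A1 lower and the nuclear receptor NR2F2 higher (1.52 ± 0.33). COL1A2 (limma adjusted p = 0.0253) and FBLN1 (limma adjusted p = 0.0833) had values below 0 and were not called there. Of 10 markers of smooth muscle and pericytes 2 carry a name, ACTA2 and MYLK, and both fell, with sums of 4.81 to 9.33 against 14.7 to 33.3. The one epithelial marker with a name, CLDN4, had intensities of 18.9 to 32.6 in pregnant animals and 1.75 to 19.7 in controls, and was not called (limma adjusted p = 0.0393). Trophoblast markers, 3 of 13 with a name, summed to 0.955 to 1.79 in controls, and to 1.44 in pregnant 316, 8.05 in 426, 4.30 in 447 and 41.7 in 448. In the same order AGRN was 2.01, 3.51, 4.12 and 1.62. The part of trophoblast RNA in the rise of AGRN was not tested. No stromal, muscle or epithelial marker was at the floor of 0.01 in any animal, and 0 of 7 endothelial and 0 of 7 leukocyte markers carry a name. The part of cell composition in the differences of the collagen genes was not tested.

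On both arrays the direction of calls as a whole depended on scaling. On the 18KB array 9 rows were called lower and 221 higher as deposited. With equal column medians, which take 0.83 off every log2 difference there, 172 were called lower and 82 higher. Quantile normalization gave 137 and 102, and 1 factor per animal 23 and 151. On the 18KO array the calls were 57 lower and 13 higher as deposited and 62 lower and 80 higher with equal column medians, which add 0.33. Quantile normalization gave 70 and 52 there, and 1 factor per animal 159 and 12. The 4 collagen genes lay below 0 and AGRN above 0 under each of the 4 scalings.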

How the data were processed

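The deposited tables hold spot intensities on a linear scale for 10 heifers on each of the 2 arrays. The authors' background subtraction and scaling are not given in the sources used here. Values under 0.01 were set to 0.01 before log2 was taken. Clones with 1 symbol in the gene table (whose names may be outdated) were averaged per gene. The resulting genes (86 on the 18KB and 72 on the 18KO array) and all clones without a single symbol formed 1 table per array (1420 and 1471 rows), tested with lmFit and eBayes of limma 3.58.1 in R 4.3.3, two-sided, with Benjamini-Hochberg adjustment over all rows; the series design text used SAM with the same 2-fold and 1% thresholds. The fit was tested on simulated data. Clones were also tested singly. The numbers of the animals pair the 2 arrays of each heifer, per the labels; deviations from group means over the 10 shared genes correlated at 0.352 to 0.928 within 9 animals and at -0.08 in pregnant 316. Alternatives varied column scaling, floor, pseudocount, dim-row filter, adjustment, prior, array weights, age, choice of clone and the animals left out; the dimmer COL6A3 clone alone, equal column medians with named genes alone, and differences among arrays with and without floor values, were added after seeing the data. Columns not mapped to a sample numbered 0. Figures were drawn with matplotlib 3.10.9 in Python 3.11.15.

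The members, the lists and the rules were chosen with earlier results of these data known. Named were all members and their clones, the 4 other list genes with the smallest p on each array, list genes on both arrays, and the 3 genes most like each member; marker genes are named beside their sums. No sequences were used.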

Additional observations from a re-analysis of the deposited data

Results flagged for a closer look

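Within-animal ratios and clone values were searched for single animals far from the others of their group, by the gap to the nearest animal relative to the range of the group; about 1 in 20 groups would be picked out by chance, and 2 of the 28 groups searched were. Among controls the log2 ratio of COL6A1 to COL6A2 on the 18KB array was 0.69 in control 427, against -0.29 to 0.06 in the other 5. In that animal COL6A1 had its highest intensity, 60.0, and COL6A2 was near its median, at 37.3. The log2 ratio of COL6A1 to AGRN was 5.28 in control 434, against 5.95 to 6.27 in the other 5, and control 434 had the lowest COL6A1 of all controls on that array.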

How the results depend on the processing

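Of the alternatives to the values as deposited, none turned the direction of any of the 6 gene measurements. AGRN and COL4A2 kept their calls in all 24 and 23 alternatives. Leaving out each animal in turn gave 1.99 to 2.44 for AGRN, -1.99 to -1.66 for COL4A2, -1.47 to -1.12 for COL6A1 on the 18KB array, -1.26 to -0.96 for COL6A1 on the 18KO array, -1.19 to -0.88 for COL6A2 and -2.73 to -2.15 for COL6A3. Calls were lost for COL6A1 (-1.13) and COL6A2 (-0.92) on the 18KB array with age as a covariate, for COL6A2 with a pseudocount at the 5th percentile (-0.998), and for COL6A3 with a floor at the 10th percentile (-2.44, limma adjusted p = 0.0103). COL6A1 on the 18KO array became called with 1 factor per animal (-1.36), with named genes alone and at an adjusted p under 0.05 (both -1.11). The matrix genes called numbered 2 to 7 on the 18KB array and 1 to 7 on the 18KO array without single animals, 3 (18KB) with age as a covariate, and on the 18KO array 13 with 1 factor per animal, 13 with named genes alone, 13 at an adjusted p under 0.05 and 1 with a floor at the 10th percentile. Calls over the whole 18KO array moved the same way. Of its 1471 rows 57 were called lower in the main fit and 159 with 1 factor per animal. At an adjusted p under 0.05 there were 140, and with the floor 39. With named genes alone 43 of the 72 named genes were called lower, against 21 in the main fit. The cause of these changes was not tested.

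Leaving out each animal gave ratio differences of -0.31 to -0.12 for COL6A1/COL6A2, -3.61 to -3.34 for COL6A1/AGRN, -3.34 to -3.04 for COL6A2/AGRN, 1.15 to 1.46 for COL6A1/COL6A3, 0.50 to 0.78 for COL6A1/COL4A2 and -0.80 to -0.44 for COL6A3/COL4A2. With the animal as a replicate block, the difference of COL6A1 between the arrays was 0.14 ± 0.31 (limma adjusted p = 0.999, with an SE common to all 10 genes), and the block changed no call. With equal column medians it was 1.30 for COL6A1, 0.90 for COL1A1 and 1.12 for COL3A1, the latter 2 of opposite sign to the values as deposited (-0.26 and -0.04). Without single animals it was -0.074 (without pregnant 316) to 0.28 for COL6A1, -0.39 to -0.12 for COL1A1, -0.13 to 0.17 for COL1A2 and -0.17 to 0.12 for COL3A1. Every 18KO array had values at the floor, so the block of arrays without such values was not run there. AGRN was dim in controls, and its rise was 1.88 with the pseudocount, against 2.21 as deposited. The part of this dim signal in the size of the rise was not tested.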
